A study of Mus musculus with 6 samples.

Results

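The E2F transcription factors and the retinoblastoma pocket proteins are described here as 10 genes, E2f1 to E2f8, Rb1 and Rbl1, taken by gene symbol from the 54532 genes of the deposited count table. All 10 were found once, and all 10 were among the 14679 genes with enough counts to be tested. The genes were chosen by a rule that had the difference between the groups of this RNA-seq experiment in view, so their fold changes are given as a description and nothing is read from how many of them pass a threshold. Values of these genes set side by side between the groups, as levels, ranks, ratios or shares, restate that contrast and are descriptions too. The order of the genes within a library and their promoter sequences were not used in that choice.

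The study asked what the loss of eIF5A, a translation factor that carries the spermidine-derived amino acid hypusine, does in muscle satellite cells. Primary myoblasts, the cultured progeny of these stem cells, were made by enzyme digestion of hind-limb muscle from mice labelled 3 weeks of age and were grown for 2 days in DMEM with 10% FBS and FGF at 10 μg/ml. The WT group and the eIF5A-KO group each held 3 libraries, and every library had this age, medium and day in common. The knockout mice carried Pax7 CreERT2/+;eIF5A f/f and received tamoxifen, so recombination was driven only in cells that express Pax7. The study names the controls in one place as Pax7 CreERT2/+ mice and in another as Pax7 +/+;eIF5A f/f mice, and the labels give no further detail of the alleles. The study calls the RNA-seq a triplicate experiment, and neither it nor the labels say whether the libraries of a group came from separate animals or cultures, so the p-values measure the spread between these libraries, which may be technical.

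Total counts per library ranged from 16281216 to 17734551. WT replicate 1 had 5.75% of its counts on mitochondrial genes, against 2.11% to 3.50% in the other libraries. The knocked-out gene itself did not separate the groups. Eif5a was at 1603, 986 and 1238 CPM (TMM-scaled counts relative to the library total) in WT and at 1364, 1459 and 1059 in eIF5A-KO, a log2 fold change of 0.02 with a standard error (SE) of 0.23. Counts are of whole genes, so reads outside the deleted part of the gene would not show a deletion. The study reports that it checked the knockout in satellite cells by RT-qPCR and immunostaining. Why Eif5a did not differ between these libraries was not tested. All directions below refer to libraries by their labels. The myogenic markers Pax7 and Myod1 were detected in every library. Pecam1 and Cdh5, which define endothelial cells, were also detected in every library. Per length, in the authors' FPKM, Pecam1 was at 44.5 to 131 and Cdh5 at 57.1 to 194, against 105 to 292 for Myod1.

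E2F proteins bind DNA mostly as dimers with a DP protein and control the genes that carry a cell from G1 into S phase. E2F1, E2F2 and E2F3 are known mainly as activators and are held in check by RB1. E2F4 and E2F5 act mainly as repressors together with RBL1 (p107) and RBL2 (p130), E2F6 represses without a pocket protein as part of a Polycomb complex, and E2F7 and E2F8 repress without a DP partner. Cyclin D with CDK4 or CDK6, and cyclin E with CDK2, phosphorylate the pocket proteins and release E2F. In muscle, RB1 is known for keeping differentiated fibres out of the cell cycle, and proliferating myoblasts use the activating E2Fs to enter S phase.

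Several genes of the family hold E2F binding sequences in their own promoters, so the promoter sequences were read before the levels. RefSeq promoters on GRCm38.p6, each running from 250 bases before to 50 bases after a transcript start of RefSeq, matched 7 of the 10 genes. That start equals the gene's start in the files for E2f3 (first window), E2f7, E2f8 and Rbl1 and lies 2 bases inside the gene for E2f6, but it lies 120 bases before the gene for E2f2 (first window) and 466 bases inside the gene for E2f1, so that the E2f1 window does not cover the start in the files. The second windows of E2f2 and E2f3 belong to starts inside the genes. All windows were searched on both strands for the E2F octamers TTTCCCGC, TTTCGCGC, TTTGCCGC and TTTGGCGC. An octamer was found for 4 of the 7 genes, E2f2, E2f3, E2f7 and Rbl1, and for 2.60% of the 27025 genes with a promoter in the table. The whole windows of E2f2 and Rbl1 are printed because these were the genes with a match whose groups did not overlap in level, and E2f3 and E2f7 are printed for the stretch around the match. All are 5′ to 3′ on the strand of the gene, with the octamer or its reverse complement in capitals.
E2f2, plus strand, chr4:136172024-136172323: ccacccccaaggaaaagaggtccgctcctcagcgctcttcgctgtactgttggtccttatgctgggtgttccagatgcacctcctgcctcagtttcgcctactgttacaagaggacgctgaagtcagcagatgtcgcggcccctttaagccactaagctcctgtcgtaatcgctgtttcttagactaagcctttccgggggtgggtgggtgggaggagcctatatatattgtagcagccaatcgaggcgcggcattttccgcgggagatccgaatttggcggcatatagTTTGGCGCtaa
Rbl1, minus strand, chr2:157204485-157204784: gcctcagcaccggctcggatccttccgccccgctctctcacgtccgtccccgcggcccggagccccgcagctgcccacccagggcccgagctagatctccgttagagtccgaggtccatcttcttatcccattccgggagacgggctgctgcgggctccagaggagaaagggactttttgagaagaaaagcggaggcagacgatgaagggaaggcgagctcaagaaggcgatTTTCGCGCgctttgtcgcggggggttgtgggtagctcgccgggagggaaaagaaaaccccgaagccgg
E2f3, minus strand, chr13:29986055-29986086: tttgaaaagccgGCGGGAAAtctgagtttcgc
E2f7, plus strand, chr10:110745229-110745260: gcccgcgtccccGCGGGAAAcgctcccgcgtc

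The octamer of E2f2 was centred 43 bases after the start that RefSeq gives, that of Rbl1 14 bases before the start, that of E2f3 7 bases before and that of E2f7 194 bases before. The CHR hexamer TTTGAA, the sequence through which the MuvB complex acts on genes of G2 and mitosis, was found in a window of E2f2 (its second), E2f3 and E2f8, and for 20.2% of all genes with a promoter. A match of letters is a description of the window, and no binding was measured here.

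E2f2 showed the largest difference of the 10 genes and was lower in every library labelled eIF5A-KO than in any WT library. E2f2, one of the activators, lies on chr4:136172394-136196057 (mm10, plus strand, 7 exons in the annotation). Its level was 16.5, 43.8 and 27.4 CPM in WT replicates 1 to 3 and 6.18, 5.33 and 3.91 CPM in eIF5A-KO replicates 1 to 3. The counts behind these values were 255, 826 and 464 in WT and 101, 90 and 69 in eIF5A-KO. The group means were 29.2 ± 13.8 CPM (SD, n = 3) and 5.14 ± 1.15 CPM, a 5.69-fold difference, and the log2 fold change was -2.51 (SE 0.36, 95% interval -3.31 to -1.71). The WT libraries themselves spread widely, with replicate 2 highest and replicate 1 lowest, whereas the eIF5A-KO libraries lay close together. The adjusted p in edgeR's quasi-likelihood test was 0.0879, and the gene passed an adjusted p of 0.05 under 4 of the 16 alternative settings. It was lower in all 16, with log2 fold changes of -2.78 to -1.68.

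The other activators did not show this pattern. E2f1, on chr2:154559407-154569892, was at 51.6, 41.4 and 41.9 CPM in WT and at 44.2, 59.0 and 27.4 CPM in eIF5A-KO. The eIF5A-KO libraries held both the highest and the lowest value of E2f1, and its log2 fold change of -0.05 (95% interval -0.64 to 0.55) turned positive, to 0.07, without WT replicate 1 and, to 0.20, without eIF5A-KO replicate 3. E2f3, on chr13:29906575-29986063, was at 21.3, 35.9 and 24.5 CPM in WT and at 19.6, 19.2 and 22.6 CPM in eIF5A-KO. The groups overlapped, since eIF5A-KO replicate 3 lay above WT replicate 1, and the log2 fold change was -0.41 (SE 0.22, 95% interval -0.91 to 0.09). Without WT replicate 2, the highest library, it was -0.16.

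**Figure D1:**
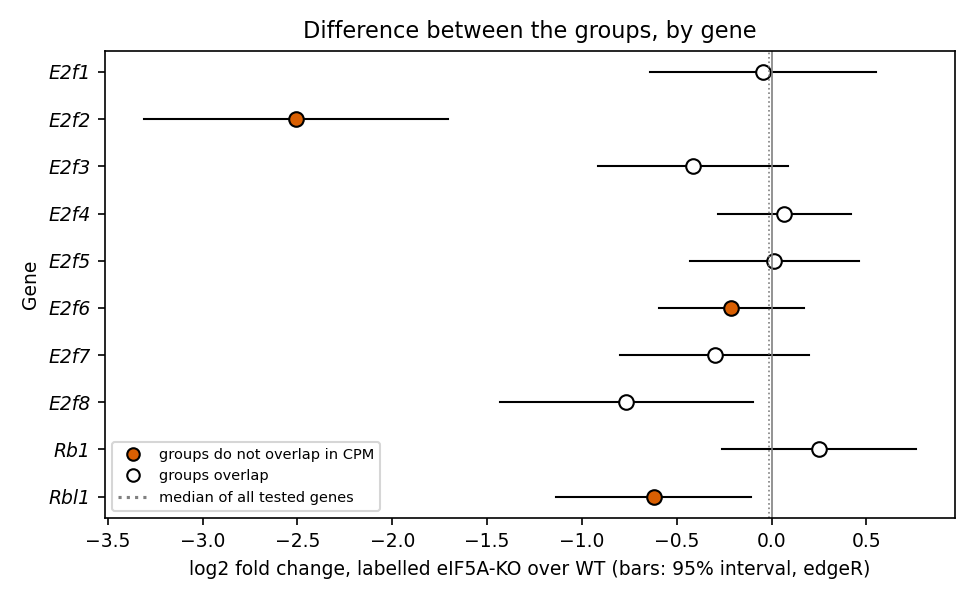
Log2 fold change of each of the 10 genes, libraries labelled eIF5A-KO over WT, from edgeR, with 95% intervals as bars; filled points mark genes whose groups do not overlap in CPM, and the dotted line is the median of all tested genes. E2f2 stands alone at -2.51, the intervals of E2f8 and Rbl1 also lie below 0, and the intervals of the other 7 genes include 0.

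The repressors that work with pocket proteins differed little between the groups. E2f4, on chr8:105297663-105305370, was at 80.6, 88.0 and 97.7 CPM in WT and at 95.1, 90.2 and 93.8 CPM in eIF5A-KO. E2f5, on chr3:14578641-14606309, was at 24.0, 18.2 and 20.4 CPM in WT and at 17.5, 21.5 and 24.3 CPM in eIF5A-KO. The groups overlapped for both genes. The log2 fold change was 0.07 (95% interval -0.29 to 0.42) for E2f4 and 0.01 (95% interval -0.43 to 0.46) for E2f5, whose sign changed with library size alone as the scaling. E2f4 was at 0.010 without WT replicate 1 and at 0.14 without WT replicate 3. An exon of E2f5 overlaps 1810022K09Rik on the other strand, which had 565 to 1207 counts per library, and reads of the overlap cannot be assigned to a strand here.

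E2f6, on chr12:16810963-16839742, was slightly lower in the libraries labelled eIF5A-KO. Its values were 60.0, 49.3 and 48.0 CPM in WT and 41.3, 47.1 and 47.4 CPM in eIF5A-KO, so the groups did not overlap, but the nearest libraries were less than 1 CPM apart. The log2 fold change was -0.21 (SE 0.17, 95% interval -0.60 to 0.17), and it was -0.10 without WT replicate 1, the highest library.

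The atypical repressors E2f7 and E2f8 were both low, and both were highest in WT replicate 2. E2f8, on chr7:48866429-48881596, was at 10.2, 22.5 and 13.9 CPM in WT and at 8.38, 10.9 and 8.16 CPM in eIF5A-KO, a log2 fold change of -0.77 (SE 0.30, 95% interval -1.43 to -0.10). WT replicate 1 lay below eIF5A-KO replicate 2, and without WT replicate 2 the log2 fold change was -0.40. E2f7, on chr10:110745439-110787384, was at 10.1, 16.2 and 12.3 CPM in WT and at 10.4, 11.1 and 9.98 CPM in eIF5A-KO, a log2 fold change of -0.30 (95% interval -0.80 to 0.20) that was -0.10 without WT replicate 2. A stretch of 339 bases of E2f8 is also annotated as Gm2788 on the other strand, where 1 to 7 counts per library were assigned.

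The pair of pocket proteins lay on opposite sides of 0. Rbl1, which encodes p107, lies on chr2:157145893-157204534 on the minus strand and was at 38.1, 40.4 and 28.2 CPM in WT and at 17.3, 24.2 and 28.0 CPM in eIF5A-KO. No eIF5A-KO library exceeded a WT library, although WT replicate 3 and eIF5A-KO replicate 3 were nearly equal, and the log2 fold change was -0.62 (SE 0.23, 95% interval -1.14 to -0.11). Rb1, on chr14:73183673-73325822, was at 33.4, 51.8 and 55.6 CPM in WT and at 55.8, 47.1 and 64.8 CPM in eIF5A-KO. The groups overlapped, and the log2 fold change of 0.25 (95% interval -0.26 to 0.76) was 0.06 without WT replicate 1, the lowest library. Exons of Rb1 overlap Rcbtb2 and Lpar6 on the other strand, with 431 to 625 and 702 to 1199 counts per library. The ratio of Rbl1 to Rb1 in FPKM was 1.15, 0.784 and 0.509 in WT and 0.310, 0.515 and 0.434 in eIF5A-KO, so WT replicate 3 lay within the range of the eIF5A-KO libraries.

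Across the 10 genes, 7 had a log2 fold change below 0, as did 51.7% of all tested genes, and the median was -0.26 against -0.01 for all tested genes. This median was not recomputed with single libraries left out, although the values of several of the genes moved, as given above. Of the 10 genes, 3 were lower at an unadjusted p under 0.05 (E2f2, E2f8 and Rbl1), against 4.02% of all tested genes. E2f8 was no longer past this p without WT replicate 2, eIF5A-KO replicate 1 or eIF5A-KO replicate 3 or in limma on FPKM, and Rbl1 without WT replicate 2, eIF5A-KO replicate 1 or eIF5A-KO replicate 2, while E2f2 passed it in all 16 alternatives. The study's criterion, a fold change over 2 with an unadjusted p under 0.05, was met by E2f2 alone among the 10 genes, and by 1.32% of all tested genes in the lower direction. The groups did not overlap and were lower in eIF5A-KO for 3 genes (E2f2, E2f6 and Rbl1) and for 6.83% of all tested genes. At an adjusted p under 0.05, none of the 10 genes and 0.0204% of all tested genes were called by edgeR, while DESeq2 called E2f2. As the choice of genes used this contrast, these counts describe the genes and support nothing further.

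Some markers of the muscle lineage differed in the same direction as several of these genes, and others did not. In WT, E2f2, E2f3, E2f7 and E2f8 were all highest in replicate 2 and lowest in replicate 1. So were Pax7, at 12.9, 51.7 and 25.2 CPM, and Myog, which marks myoblasts that begin to differentiate, at 14.4, 76.3 and 32.2 CPM. Myod1, Des and Cdh15 had the same WT order, and so had all endothelial markers but Emcn and all mural markers but Rgs5. The order was therefore not particular to muscle markers. In eIF5A-KO, Pax7 was at 13.0, 8.29 and 10.6 CPM and Myog at 8.93, 5.09 and 2.10 CPM. The groups of Pax7 overlapped, since eIF5A-KO replicate 1 lay just above WT replicate 1. Of the 6 myogenic markers only Myog had groups without overlap. Myf5 was at 12.1, 13.4 and 11.6 CPM in WT and at 20.3, 11.7 and 8.62 CPM in eIF5A-KO, and the groups of Myod1, Des and Cdh15 also overlapped, Des with its highest library in eIF5A-KO. Of the 6 myogenic markers 5 had a log2 fold change below 0, as did 51.7% of all tested genes. For Des it was -0.02 (SE 0.35), and whether its sign held under other settings was not tested. At an unadjusted p under 0.05, 2 were lower (Pax7 and Myog), against 4.02% of all tested genes. The summed level was 517 to 1184 CPM in WT and 427 to 873 CPM in eIF5A-KO, most of it from Myod1 and Des. Of the other cell types, the mural markers alone separated the groups in their sum. All 5 mural markers were higher, 3 of them at an unadjusted p under 0.05 (2.74% of all tested genes in that direction), with sums of 305 to 450 CPM in WT and 569 to 651 CPM in eIF5A-KO, and all 5 endothelial markers were higher, 1 of them at an unadjusted p under 0.05, with overlapping sums of 856 to 1826 and 1488 to 2351 CPM. The 5 fibroblast markers (2 higher, 3 lower, with Col1a1 higher at an unadjusted p under 0.05 and Dcn the largest part of the sum) summed to 1338 to 2217 CPM in WT and 1376 to 1864 CPM in eIF5A-KO, and the 5 macrophage and leukocyte markers (3 higher, 2 lower, with Cd68 higher at that p) to 22.6 to 44.1 and 29.4 to 70.5 CPM, with overlap in both cases. Myh11, the smooth muscle myosin among the mural markers, was at 10.47, 10.98 and 10.51 CPM in WT and at 29.2, 28.3 and 34.2 CPM in eIF5A-KO, and was 1 of the 3 genes of the whole table with an adjusted p under 0.05 in edgeR (log2 fold change 1.52, adjusted p 0.0486), a call that held in 5 of the 16 alternatives. None of the markers was at 0 in all libraries. Their part in the differences of the E2F and pocket protein genes was not tested, and in bulk RNA fewer cells of a type and less RNA per cell cannot be told apart.

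Levels of different genes can be compared only per length, and for this the authors' FPKM (fragments scaled to gene length and library size) were used. E2f4 was the most abundant of the 10 genes in every library, at 32.4, 35.5 and 39.5 FPKM in WT and 38.4, 36.6 and 38.1 FPKM in eIF5A-KO. By the mean of log2(FPKM + 0.1) over the 6 libraries, the order was E2f4, E2f1, E2f5, E2f6, Rb1, Rbl1, E2f3, E2f2, E2f8 and E2f7. E2f4 exceeded E2f1 in all 6 libraries, by 1.43 ± 0.43 on the log2 scale (SD over libraries), E2f5 exceeded E2f6 in all 6, by 0.44 ± 0.16, and E2f8 exceeded E2f7 in all 6, by 0.69 ± 0.29. The other neighbours were not separated beyond their spread in every library. E2f1 was above E2f5, Rb1 above Rbl1 and Rbl1 above E2f3 in 5 of the 6 libraries, and E2f6 was above Rb1 in 3 of the 6. Without WT replicate 1 the order of E2f6 and Rb1 was exchanged.

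**Figure D2:**
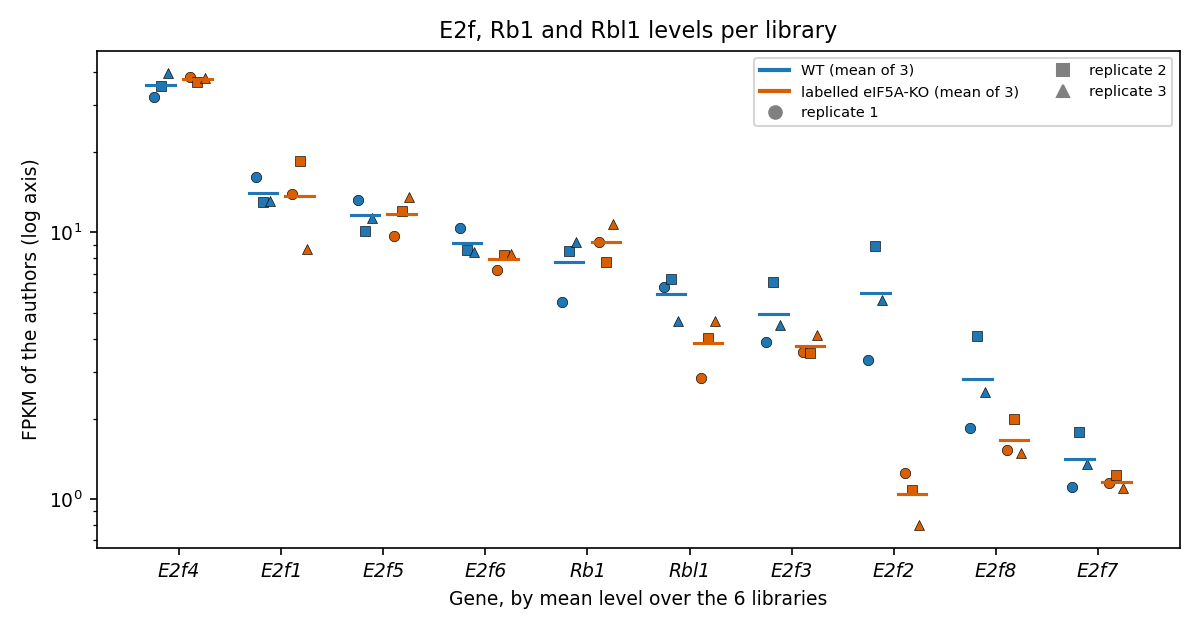
Level of the 10 genes in each library in FPKM on a log axis, ordered by mean level; symbols give the replicate, and lines give the mean of the 3 libraries of a group. E2f4 lies above all other genes in each library, and E2f2 is the gene whose place in the order differs most between the groups, from 3.32 to 8.88 FPKM in WT and from 0.798 to 1.25 FPKM in eIF5A-KO.

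The place of E2f2 in this order differed between the groups, which restates its lower level in eIF5A-KO. In WT, E2f2 was at 3.32, 8.88 and 5.57 FPKM and ranked 7 of 10, above E2f3 at 3.87, 6.53 and 4.48 FPKM. In eIF5A-KO, E2f2 was at 1.25, 1.09 and 0.798 FPKM and ranked 10 of 10, with E2f3 at 3.57, 3.52 and 4.14 FPKM, E2f8 at 1.53, 1.99 and 1.49 FPKM and E2f7 at 1.14, 1.23 and 1.10 FPKM. The ratio of E2f2 to E2f3 was 0.859, 1.36 and 1.24 in WT and 0.351, 0.308 and 0.193 in eIF5A-KO. E2f2 exceeded E2f8 in 3 of 3 WT libraries and in 0 of 3 eIF5A-KO libraries.

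The 8 E2f genes were also compared by their sum and by its makeup. Their summed FPKM was 82.3, 88.5 and 86.4 in WT and 76.8, 83.3 and 76.2 in eIF5A-KO, so that eIF5A-KO replicate 2 lay within the WT range. E2f2 made up 4.04%, 10.0% and 6.44% of this sum in WT and 1.63%, 1.30% and 1.05% in eIF5A-KO. E2f4 made up 39.3%, 40.1% and 45.7% in WT and 50.0%, 43.9% and 50.0% in eIF5A-KO, and these ranges overlapped. The 3 activators E2f1, E2f2 and E2f3 summed to 25.0 ± 2.97 FPKM in WT and 18.5 ± 4.82 FPKM in eIF5A-KO (SD, n = 3). Their values of 23.3, 28.4 and 23.2 FPKM in WT and 18.7, 23.2 and 13.6 FPKM in eIF5A-KO touched at WT replicate 3 and eIF5A-KO replicate 2, and E2f1 and E2f3 alone summed to 20.0, 19.5 and 17.7 against 17.5, 22.1 and 12.8 FPKM. E2f4 and E2f5 together were at 45.6, 45.6 and 50.9 FPKM in WT and 48.2, 48.6 and 51.7 FPKM in eIF5A-KO.

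**Figure D3:**
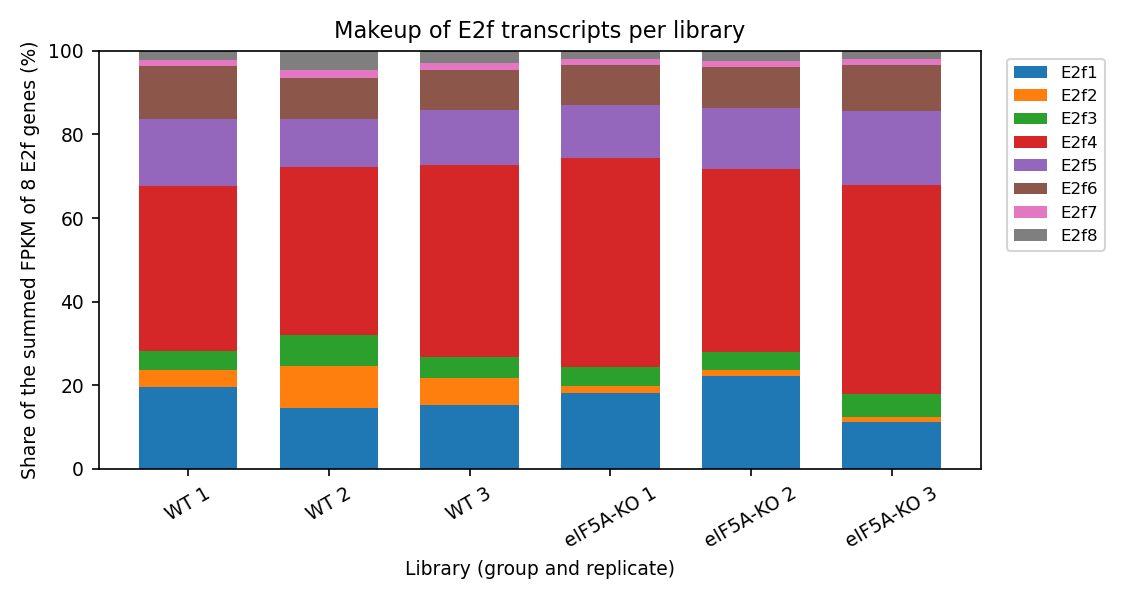
Share of each E2f gene in the summed FPKM of the 8 E2f genes, in percent, for the 6 libraries. E2f4 holds the largest share of every library, from 39.3% to 50.0%, and the share of E2f2 is 4.04% to 10.0% in WT and 1.05% to 1.63% in eIF5A-KO.

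For 4 of the genes, the 3 genes whose pattern over the 6 libraries was most alike were found among 11038 other genes with a mean of at least 5 CPM, by the root mean square difference of centred log2(CPM + 0.5). For Rbl1 these were Ccp110 at 0.08, Lbr at 0.09 and Zfp715 at 0.10. For Rb1 they were Usp27x at 0.05, Whamm at 0.05 and Pdcd6ip at 0.05, for E2f1 Nt5dc2 at 0.10, Gm7367 at 0.11 and Pars2 at 0.11, and for E2f8 Ncapd2, Arhgap28 and Sema4d, each at 0.13. With 6 libraries and this many candidate genes, the values are a description of likeness only.

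The genes around the RB-E2F axis were described in 6 lists that were not trimmed by how they moved, and no gene of any list reached an adjusted p under 0.05 in edgeR, while DESeq2 called 5, against 0.627% of all genes it tested. The first holds the DP partners, the MuvB core and the late activators of the cell cycle. Of its 10 genes 8 were lower and 2 higher, with a median log2 fold change of -0.38, and 2 were lower at an unadjusted p under 0.05, where 51.7% and 4.02% of all tested genes were. Tfdp2, a DP partner of E2F, was at 20.6, 25.7 and 19.8 CPM in WT and at 10.3, 14.5 and 11.7 CPM in eIF5A-KO, with no overlap and a log2 fold change of -0.85 (SE 0.21, adjusted p 0.389). Tfdp1, the more abundant DP partner, was at 206, 172 and 155 CPM in WT and at 110, 148 and 140 CPM in eIF5A-KO, again with no overlap (log2 fold change -0.42). Mybl2, which joins MuvB in S phase, was at 25.9, 29.3 and 25.3 CPM in WT and at 17.4, 20.6 and 13.4 CPM in eIF5A-KO (log2 fold change -0.65). Foxm1, which acts later, had overlapping groups and a log2 fold change of -0.39 that was -0.22 without WT replicate 2. The MuvB core went both ways. Lin9 (-0.37), Lin54 (-0.30) and Rbbp4 (-0.40) were below 0, Lin37 (0.25) and Lin52 (0.16) were above it, and only for Rbbp4 did the groups not overlap. Without eIF5A-KO replicate 1, Lin9 was at -0.22 and Lin54 at -0.18, and without WT replicate 1 Rbbp4 was at -0.24 and Lin37 at 0.099. Lin37 was at 0.12 without eIF5A-KO replicate 2. Rbl2, the third pocket protein, was at 18.2, 25.8 and 15.7 CPM in WT and at 15.0, 18.3 and 19.6 CPM in eIF5A-KO, and its log2 fold change of -0.18 was 0.06 without WT replicate 2.

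Among 15 cyclins, cyclin-dependent kinases and their inhibitors, 11 were lower and 4 higher, with a median log2 fold change of -0.35 that was -0.14 without eIF5A-KO replicate 3, and 5 were lower at an unadjusted p under 0.05, where 51.7% and 4.02% of all tested genes were. Cdkn2a, whose products include the CDK4 and CDK6 inhibitor p16, was the gene of this list with the largest difference, at 3.75, 4.51 and 3.48 CPM in WT and at 1.53, 1.01 and 0.68 CPM in eIF5A-KO. The groups did not overlap, the log2 fold change was -1.87 (SE 0.36, adjusted p 0.289), and the lowest library held 12 counts. Ccne2, an E-type cyclin, was at 31.2, 21.4 and 20.3 CPM in WT and at 10.5, 17.9 and 14.2 CPM in eIF5A-KO (log2 fold change -0.77), and Ccne1 had overlapping groups (-0.45, and -0.22 without WT replicate 1). Cdk6 was at 20.8, 42.5 and 28.0 CPM in WT and at 18.7, 16.0 and 21.4 CPM in eIF5A-KO (-0.70). WT replicate 1 lay within the eIF5A-KO range, and without WT replicate 2 the value was -0.38. The D-type cyclins had log2 fold changes of -0.39 for Ccnd1 (-0.25 without eIF5A-KO replicate 1), 0.08 for Ccnd2, whose sign changed when single libraries were left out, and -0.32 for Ccnd3 (-0.14 without eIF5A-KO replicate 3), all with overlapping groups. Cdk4 was at -0.01, with a sign that changed between settings. The inhibitors Cdkn1a, Cdkn1b and Cdkn1c were at 0.33, -0.07 and 0.43, each with overlapping groups. Cdkn1a was at 0.20 without WT replicate 1, the sign of Cdkn1b changed when a library was left out, and Cdkn1c was at 0.14 without eIF5A-KO replicate 1. The inhibitors of the INK4 family also went both ways. Besides Cdkn2a, Cdkn2c was lower at -0.56 and Cdkn2b higher at 0.37, both with no overlap, and Cdkn2d was at -0.35 with overlap. Cdkn2b was at 0.19 without eIF5A-KO replicate 1. Cdkn2d was at 0.015 without WT replicate 1 and at -0.051 without eIF5A-KO replicate 3.

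The G1/S genes that E2F controls were mostly lower, each by less than E2f2. Of 25 genes 24 were lower and 1, Cdt1, was higher at 0.12, a value that was -0.030 without WT replicate 1 and -0.028 without eIF5A-KO replicate 1. The median log2 fold change was -0.45, 12 were lower at an unadjusted p under 0.05 (4.02% of all tested genes), and for 15 the groups did not overlap with eIF5A-KO lower (6.83% of all tested genes). Mcm2 and Mcm5, subunits of the replicative helicase, were at -0.45 and -0.57. Mcm5 was at 165, 136 and 129 CPM in WT and at 93.4, 119 and 77.8 CPM in eIF5A-KO. Cdc6, which loads that helicase, was at -0.50, and Pcna, the sliding clamp of DNA polymerase, at -0.50 with overlapping groups and at -0.20 without WT replicate 1. The nucleotide synthesis genes Rrm2, Tk1 and Tyms were at -0.37, -0.38 and -0.61, and without WT replicate 1 at -0.24, -0.22 and -0.25. Tk1 was at -0.08 without eIF5A-KO replicate 3. Tyms was at 115, 55.8 and 69.5 CPM in WT and at 49.4, 56.9 and 51.1 CPM in eIF5A-KO. For 20 of the 25 genes, and for 13 of the 20 G2/M genes described next, the highest of the 6 libraries was WT replicate 1. It was the lowest WT library for E2f2, E2f3, E2f7 and E2f8, and without it the median of the list was -0.30.

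The G2/M genes controlled through CHR elements had the lowest median of the 6 lists. All 20 were lower, the median log2 fold change was -0.74, 16 were lower at an unadjusted p under 0.05 (4.02% of all tested genes) and for 17 the groups did not overlap (6.83% of all tested genes). Top2a, the topoisomerase that separates replicated chromosomes, was at 239, 249 and 218 CPM in WT and at 116, 141 and 118 CPM in eIF5A-KO, a log2 fold change of -0.91 (SE 0.17, adjusted p 0.242). Ccna2, Ccnb1 and Cdk1, the cyclins and the kinase of mitotic entry, were at -0.86, -0.78 and -0.88. Cdk1 was at 202, 95.1 and 113 CPM in WT and at 72.3, 91.1 and 59.7 CPM in eIF5A-KO, and its log2 fold change was -0.48 without WT replicate 1. Mki67, a marker of cycling cells, was at 80.7, 163 and 129 CPM in WT and at 77.2, 79.2 and 64.6 CPM in eIF5A-KO (-0.75), and the mitotic kinase Plk1 was at -0.43, and at -0.22 without eIF5A-KO replicate 3. Without WT replicate 1 the median of this list was -0.56. These lists were drawn up with results of the same contrast known, so that their direction is not independent evidence.

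The lists nearest to E2f6 and to the pocket proteins' corepressors had medians closest to that of all tested genes, -0.01. Of the 9 genes of the E2F6 complex 8 were lower and 1 higher, against 51.7% of all tested genes below 0, and no gene was lower at an unadjusted p under 0.05, against 4.02%. The median was -0.06, and ranged from -0.15 without eIF5A-KO replicate 3 to -0.0031 without eIF5A-KO replicate 1. Its subunits Pcgf6, L3mbtl2 and Mga were at -0.08, -0.04 and -0.16, and the signs of L3mbtl2 and Mga changed when single libraries were left out. Pcgf6 was at -0.025 without WT replicate 3. Of 8 chromatin corepressors 5 were lower and 3 higher, and no gene was at an unadjusted p under 0.05. Their median of -0.03 was -0.080 without eIF5A-KO replicate 3 and -0.0021 in limma on log2(FPKM + 0.1).

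**Figure D4:**
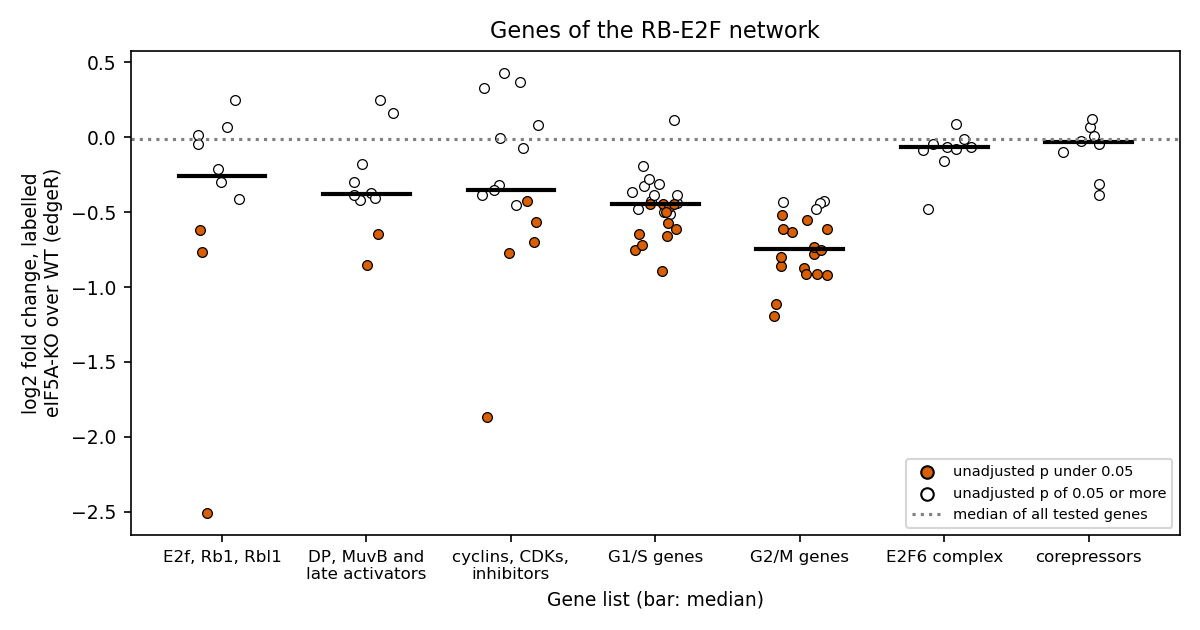
Log2 fold change of each gene, libraries labelled eIF5A-KO over WT, for the 10 genes described and the 6 lists around them; bars are list medians, filled points have an unadjusted p under 0.05, and the dotted line is the median of all tested genes. The G2/M and G1/S genes lie below that line except for 1 G1/S gene, with medians of -0.74 and -0.45, while the E2F6 complex and the corepressors have medians of -0.06 and -0.03.

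The promoters of these lists were searched for the same motifs. An E2F octamer was found for 9 of 20 G1/S genes with a promoter in the table (45.0%) and for 1 of 16 G2/M genes (6.25%), against 2.60% of all genes. The octamer shares of the other lists lay between these. They were 25.0% for the DP and MuvB list, 18.2% for the cyclins, kinases and inhibitors, 14.3% for the E2F6 complex and 16.7% for the corepressors. The CHR hexamer was found for 2 of 20 G1/S genes (10.0%) and for 11 of 16 G2/M genes (68.8%), against 20.2% of all genes. In the other lists, in the same order, its shares were 37.5%, 9.09%, 0% and 16.7%. Among the genes of the pocket protein and E2F family the octamer was found in 4 of 7 (57.1%) and the hexamer in 3 of 7 (42.9%). No window of E2f1, E2f6 or E2f8 held one of the 4 octamers, which says only that these letters are not in the window, and for E2f1 the sequence at the start in the files was not searched.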

How the data were processed

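The authors extracted RNA with TRIzol, had libraries made with an NEBNext Ultra kit, mapped reads to mm10 with HISAT and deposited raw read counts per gene. They also deposited FPKM, whose denominator was checked against the counts and equalled a median-of-ratios size factor times the geometric mean of the totals, and a column of gene length in bases. All 6 libraries were compared with edgeR 4.0.16 in R 4.3.3: genes were kept by filterByExpr, scaled by TMM and tested by quasi-likelihood (prior count 0.125), and p-values of the 14679 genes were adjusted by Benjamini-Hochberg. Intervals are at 95%. The scripts were tested on simulated data. Alternatives used DESeq2 1.42.0, limma 3.58.1 with pseudocounts of 1 and 0.1, other scalings and filters, a replicate block and the omission of each library. The SE was computed from the edgeR fit as the absolute log2 fold change over the square root of the F statistic. The intervals use this SE with a t quantile and include the spread between libraries.

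The members and lists were chosen with earlier results of these data known. All 10 members, a preset part of each list, the targeted gene and the 3 most alike genes were named whatever their values, and Cdt1, Ccnd3, Cdkn2b, Cdkn2c, Cdkn2d, Lin37, Lin52, Rbbp4 and Myh11 were named after their values were seen. Promoter sequences came from RefSeq (GRCm38.p6), and copies were searched with blastn 2.17.0.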

Additional observations from a re-analysis of the deposited data

How the results depend on the processing

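E2f2 was lower in all 16 alternatives, with adjusted p-values from 3.16e-18 to 0.450, and passed 0.05 without a filter, in DESeq2 (9.21e-09), in the fit with a replicate block (0.00246) and without WT replicate 1 (0.00305). The count of tested genes called at an adjusted p under 0.05, 3 in the main comparison, was 0 with DESeq2 size factors, with library size alone, with at least 10 counts in every library, in limma-voom and in limma on either FPKM scale, 249 without a filter and 92 in DESeq2, and ranged from 0 to 56 when single libraries were left out. Whether the replicate numbers pair the libraries could not be decided. With 3 libraries per group, deviations from the group mean correlated at 0.09, -0.20 and 0.11 for same-numbered libraries. For differently numbered libraries these correlations ranged from -0.29 to 0.31. With the replicate number as a block 24 genes were called. Genes past the fold criterion, 78 higher and 194 lower, were 180 and 512 without a filter, 40 and 123 with at least 10 counts in every library, 12 and 47 in limma on log2(FPKM + 1), and 51 higher on log2(FPKM + 0.1). With single libraries left out they ranged from 69 to 163 higher and from 188 to 318 lower. Genes of the 6 lists called at an adjusted p under 0.05 were 0 in the main comparison, 9 without a filter and 5 in DESeq2, and ranged from 0 to 2 with single libraries left out, the 2 being without WT replicate 1.

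The alternatives were fitted for 53 of the genes named with a fold change, and Des, at -0.02, was not among them. Of these 53 genes 42 kept their sign in all alternatives. The log2 fold changes of the other 11 had these ranges when single libraries were left out: E2f1 from -0.32 to 0.20, E2f5 from -0.098 to 0.14, Rbl2 from -0.32 to 0.059, Ccnd2 from -0.093 to 0.24, Cdk4 from -0.16 to 0.19, Cdkn1b from -0.13 to 0.017, L3mbtl2 from -0.14 to 0.021, Mga from -0.38 to 0.11, Cdt1 from -0.030 to 0.25, Cdkn2d from -0.52 to 0.015 and Eif5a from -0.13 to 0.23. E2f5 was at -0.0034 with library size alone. Cdk4 was at 0.0052 without a filter, 0.0047 in limma-voom, 0.0143 and 0.0145 in limma on the FPKM scales and 0.0056 with the replicate block. The cause was not tested. Rbl1 and E2f8 did not reach an adjusted p of 0.05 in any setting, with lowest values of 0.328 and 0.152, and 3 libraries per group limit the precision of all values.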

Other observations

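Genes whose pattern over the 6 libraries was most like that of E2f2 were looked up after its values had been seen. They were Rbm24, an RNA-binding protein of muscle differentiation, at a root mean square difference of 0.26 on the centred log2 scale, Lrrn1 at 0.27 and Il18rap at 0.31. Rbm24 was at 11.9, 35.6 and 18.4 CPM in WT and at 3.24, 2.25 and 2.32 CPM in eIF5A-KO, in the same order of WT libraries as E2f2. These differences exceed the 0.05 to 0.13 found for the genes most like Rbl1, Rb1, E2f1 and E2f8. Such differences grow with a gene's own range, which was 3.91 to 43.8 CPM for E2f2 and 33.4 to 64.8 CPM for Rb1. A larger value therefore does not mean a poorer likeness.

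A count over all tested genes with a RefSeq promoter was also added after the data had been seen. The 493 genes with an E2F octamer had a median log2 fold change of -0.06, and 53 of them (10.8%) were lower and 5 higher at an unadjusted p under 0.05. The 10159 genes without the octamer had a median of -0.0039, and 3.59% of them were lower and 2.55% higher, against 1.01% higher with it. For the CHR hexamer, 6.90% of 1522 genes with it were lower and 2.56% higher, and of 9130 genes without it 3.43% were lower and 2.46% higher. Both sets with a motif hold genes of the G1/S and G2/M lists, and genes are not independent replicates, so no test was made.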
